A study of Mus musculus with 16 samples.

Results

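The genes described here were 8 genes of cholesterol synthesis and its control, taken by symbol from the UMI count table: Hmgcs1, Idi1, Fdps, Fdft1, Sqle, Sc5d, Srebf2 and Insig1. They are 8 of the 24019 genes in the table, and each symbol matched 1 row. Of these, 6 encode enzymes of the synthesis route and 2 encode regulators of it, and none is a gene of sterol uptake. They were followed in pancreas from 16 mice in 4 groups of 4. Adam17ex cerulein mice were homozygous for the hypomorphic Adam17ex allele (Adam17ex/ex, called Adam17ex here) and received 7 hourly intraperitoneal doses of cerulein at 50 µg/kg. WT cerulein mice were wild-type C57BL/6J given the same doses, and Adam17ex PBS and WT PBS mice received 50.0 µl of phosphate-buffered saline on the same schedule. All were littermates of 6 to 8 weeks, killed 1 h after the final dose, with 2, 1, 2 and 0 males among the 4 mice of the Adam17ex cerulein, WT cerulein, Adam17ex PBS and WT PBS groups. Cerulein is a peptide analogue of cholecystokinin that overstimulates acinar cells and produces acute pancreatitis, and ADAM17 is a membrane protease that sheds growth factor and cytokine precursors. The allele lowers ADAM17 and does not remove it, and the response was read at a single early time.

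Cells make cholesterol from acetyl-CoA through mevalonate and the isoprenoid farnesyl diphosphate, which is then committed to squalene and cyclised to sterols. When sterol in the endoplasmic reticulum membrane is low, the SCAP protein escorts SREBP-2, the product of Srebf2, to the Golgi, where proteases release its active part to switch on genes of the route. INSIG proteins hold SCAP and SREBP in the endoplasmic reticulum when sterol is plentiful, and Insig1 is itself a target of SREBP, so it is part of a feedback loop. Acinar cells of the pancreas carry an extensive endoplasmic reticulum for the synthesis of digestive enzymes.

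SREBP-2 is known to act at promoters through sterol regulatory elements, often beside binding sites for the factors NF-Y, at CCAAT boxes, and Sp1, at GC boxes. Windows from 250 bases before to 50 bases after the start of transcription were taken from RefSeq on build GRCm38.p6, where 5 of the 8 genes matched. The motifs searched on both strands were TCACNCCAC for the sterol element, CCAAT for the CCAAT box bound by NF-Y, GGGCGG for the GC box bound by Sp1 and CACGTG for the E-box. Windows of 3 genes, the first enzyme of the set and both regulators, are shown because these genes sit at the entry and at the control of the route. They run 5′ to 3′ on the strand of the gene, with sterol element and CCAAT matches in capitals (ATTGG is CCAAT on the other strand). They are chr13:119690101-119690400 on the plus strand for Hmgcs1, chr5:28071162-28071461 on the plus strand for Insig1 and chr15:82147019-82147318 on the plus strand for Srebf2.
Hmgcs1: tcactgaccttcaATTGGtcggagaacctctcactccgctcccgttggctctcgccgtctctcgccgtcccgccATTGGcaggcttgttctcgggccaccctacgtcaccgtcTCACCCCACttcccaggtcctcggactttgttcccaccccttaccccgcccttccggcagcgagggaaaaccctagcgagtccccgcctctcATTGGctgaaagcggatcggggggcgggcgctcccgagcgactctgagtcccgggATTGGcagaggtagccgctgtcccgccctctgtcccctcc
Insig1: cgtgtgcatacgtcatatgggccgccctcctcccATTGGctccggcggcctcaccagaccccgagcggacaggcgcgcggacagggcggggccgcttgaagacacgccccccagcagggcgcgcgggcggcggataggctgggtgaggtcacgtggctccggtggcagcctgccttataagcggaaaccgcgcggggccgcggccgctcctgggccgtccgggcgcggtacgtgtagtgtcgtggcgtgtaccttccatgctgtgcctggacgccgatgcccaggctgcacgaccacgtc
Srebf2: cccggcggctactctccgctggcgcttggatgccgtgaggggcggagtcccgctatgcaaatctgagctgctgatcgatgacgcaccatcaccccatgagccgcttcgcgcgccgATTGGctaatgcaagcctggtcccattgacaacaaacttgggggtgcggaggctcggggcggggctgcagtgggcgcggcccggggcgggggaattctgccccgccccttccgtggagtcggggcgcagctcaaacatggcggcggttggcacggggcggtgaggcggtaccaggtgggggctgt
The sterol element letters occurred once, at base 114 of the Hmgcs1 window, and in 1.24% of the 32851 promoter windows of the table. CCAAT boxes were found in all 5 member windows, 4 of them in Hmgcs1, 2 in Idi1 and 1 each in Insig1, Sc5d and Srebf2, against 37.4% of all windows with at least 1. GC boxes were also found in all 5, with 3, 1, 3, 4 and 5 matches in Hmgcs1, Idi1, Insig1, Sc5d and Srebf2, against 35.7% of all windows. An E-box was found in Insig1 and in Sc5d, against 7.15% of all windows. No motif searched overlapped another in these 5 windows. A match describes the letters and not a bound site, and a window without a match says only that these letters are not in it.

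The libraries held 455547 to 1476159 UMIs each, so 1 UMI stood for 0.665 to 2.54 CPM, UMIs per 1000000 after TMM scaling of the library totals, the unit of all levels below. The Adam17ex PBS replicates 1, 2 and 3 stood apart, with 455547 to 492878 UMIs and 7.84% to 9.02% of them from the ribosomal RNA gene CT010467.1, where the other 13 libraries had 859573 to 1476159 UMIs and 2.02% to 5.04%. Adam17 had 2 to 6 UMIs per library in Adam17ex cerulein mice and 10 to 27 in WT cerulein mice, a log2 fold change of −2.05 ± 0.40 (SE, adjusted p = 0.00137), and 1 to 5 in Adam17ex PBS mice and 5 to 16 in WT PBS mice (−1.21 ± 0.49, adjusted p = 0.210). These counts do not show from which allele a transcript came. The acinar marker list, with 10 of 10 genes detected in each group, summed to 82282 CPM or more in every library, so the libraries carry the markers of their labelled tissue. In whole tissue, fewer cells that express a gene and less of its RNA per cell cannot be told apart. The labels give the mice as separate samples, so p-values measure the spread between these mice. Fold changes and p-values are from edgeR's quasi-likelihood test with sex as a covariate, adjusted by Benjamini-Hochberg over the 8236 genes tested, with 0.05 as the threshold.

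Sqle and Insig1 rose under cerulein in both genotypes, by 2.81-fold to 4.70-fold for Sqle and 2.61-fold to 3.60-fold for Insig1. Srebf2 passed the test as higher only in Adam17ex mice and Hmgcs1 only in WT mice. For neither was a difference in response between the genotypes shown (edgeR, adjusted p = 0.458 and 0.485). Both calls were lost under some alternatives, given with each gene below. Fdft1 and Sc5d had fold changes of 1.12 to 1.45 that did not pass the test in either genotype. Of the 6 genes with enough counts to be tested, 3 rose and 0 fell in Adam17ex mice, where 14.1% of all genes tested rose and 16.2% fell. In WT mice 3 rose and 0 fell, where 19.8% of all genes tested rose and 21.3% fell. None of the 6 was lower at an unadjusted p under 0.05 in either genotype, and limma-voom and DESeq2 also called 3 higher and 0 lower in each. The median log2 fold change of the 6 was 0.98 in Adam17ex and 0.80 in WT mice, beside −0.03 and −0.04 over all genes tested. The genes were chosen with earlier results of these data known, so these counts and medians describe the set and carry no test. The 2 cerulein comparisons share no mice, but come from the same model fit, with a shared estimate of the spread and a shared sex term.

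**Figure D1:**
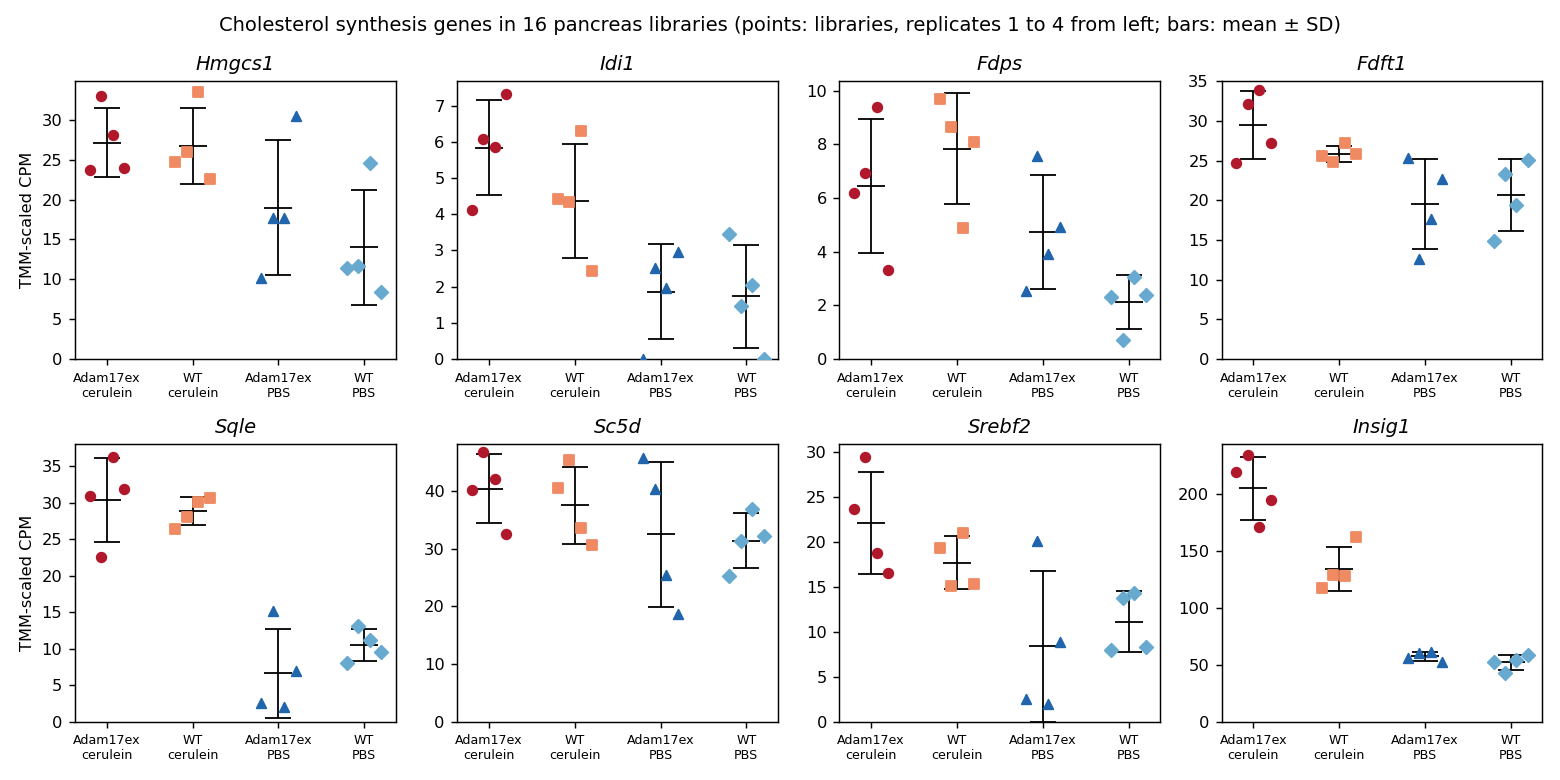
Level of each of the 8 genes (TMM-scaled CPM, linear axes from 0) in the 16 libraries, with Adam17ex cerulein, WT cerulein, Adam17ex PBS and WT PBS from left to right; points are libraries and bars are the mean ± SD of 4. Sqle and Insig1 lie higher in all 8 cerulein libraries than in all 8 PBS libraries, and the Insig1 values of Adam17ex cerulein mice (171 to 234) lie above those of WT cerulein mice (117 to 162).

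Hmgcs1 encodes the cytosolic HMG-CoA synthase, the enzyme that makes the precursor of mevalonate. In Adam17ex mice it had 23.7, 33.0, 28.1 and 23.9 CPM under cerulein, against 10.2, 17.6, 17.6 and 30.6 CPM under PBS. In WT mice it had 24.7, 25.9, 33.5 and 22.6 CPM under cerulein, against 11.5, 11.6, 24.6 and 8.37 CPM under PBS. All 8 cerulein libraries lay between 22.6 and 33.5 CPM, and 1 PBS library of each genotype, replicate 4 of Adam17ex and replicate 3 of WT, reached into that range. The log2 fold change was 0.95 ± 0.31 in WT mice (SE, adjusted p = 0.0158) and fell short of the threshold without WT cerulein replicate 3 (0.82, adjusted p = 0.0676). In Adam17ex mice it was 0.38 ± 0.32 (adjusted p = 0.381), and its sign depended on the mice used, with 0.90 (adjusted p = 0.0805) without Adam17ex PBS replicate 4, −0.23 (adjusted p = 0.766) with that replicate as the only Adam17ex PBS library and −0.07 (adjusted p = 0.924) in females only. The difference between these responses was −0.57 ± 0.44 (adjusted p = 0.485) and was not shown.

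Idi1 and Fdps act next to each other, the isomerase of isopentenyl diphosphate and the synthase of farnesyl diphosphate. Both were at the edge of detection, with 0 to 11 UMIs per library, and were below the filter on low counts, so they are not among the genes tested across the table. Idi1 had 4.12, 6.07, 5.86 and 7.31 CPM in Adam17ex cerulein mice, against 0, 2.52, 1.96 and 2.96 CPM in Adam17ex PBS mice. It had 4.41, 4.32, 6.29 and 2.42 CPM in WT cerulein mice, against 3.44, 1.45, 2.05 and 0 CPM in WT PBS mice. Adam17ex PBS replicate 1 and WT PBS replicate 4 had 0 UMIs, which allows up to 7.61 and 3.59 CPM for these libraries by a limit of 3 counts that covers counting error only. The Adam17ex groups did not overlap and the WT groups did, where 13.8% of all genes tested were higher without overlap in Adam17ex mice. An exact two-sided permutation test of the CPM, chosen after seeing the data and limited to a smallest p of 0.0286, gave p = 0.0286 in Adam17ex mice (4.12 to 7.31 against 0 to 2.96 CPM, ratio of means 3.14) and p = 0.0571 in WT mice (ratio 2.51).

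Fdps had 6.18, 6.94, 9.37 and 3.32 CPM in Adam17ex cerulein mice, against 2.54, 7.56, 3.92 and 4.93 CPM in Adam17ex PBS mice. It had 9.70, 8.65, 4.89 and 8.07 CPM in WT cerulein mice, against 2.29, 0.727, 3.07 and 2.39 CPM in WT PBS mice. Every WT cerulein library was above every WT PBS library, while the Adam17ex groups overlapped. In WT mice 19.1% of all genes tested were higher without overlap. The same exact permutation test gave p = 0.0286 in WT mice (ratio of means 3.69) and p = 0.314 in Adam17ex mice (ratio 1.36). Adjusted over these 4 permutation tests by Benjamini-Hochberg, both lowest p-values become 0.0571. The permutation test was also run for the other genes of the set and between genotypes. Those tests are not in the adjustment, which so covers only part of the tests run. In the annotation the 3′ end of Fdps lies inside the gene Gm43738 on the same strand, which has no row in the count table, and how reads of this stretch were assigned is not known.

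Fdft1 encodes squalene synthase, the first enzyme committed to sterols. It had 24.7, 32.1, 33.97 and 27.2 CPM in Adam17ex cerulein mice, against 25.4, 12.6, 17.6 and 22.7 CPM in Adam17ex PBS mice. It had 25.6, 24.9, 27.3 and 25.8 CPM in WT cerulein mice, against 14.9, 23.3, 19.5 and 25.1 CPM in WT PBS mice. In each genotype 1 PBS library reached the cerulein range. The log2 fold changes, 0.54 ± 0.24 in Adam17ex mice (SE, adjusted p = 0.0954) and 0.27 ± 0.22 in WT mice (adjusted p = 0.341), did not pass the test, and their 95% confidence intervals ran from 0.04 to 1.04 and from −0.19 to 0.73. The 3′ end of Fdft1 overlaps that of Ctsb, the gene of the protease cathepsin B, on the opposite strand. Ctsb had 319 ± 32.8 CPM in Adam17ex cerulein, 490 ± 28.5 CPM in WT cerulein, 257 ± 95.1 CPM in Adam17ex PBS and 199 ± 15.5 CPM in WT PBS mice (SD, n = 4 each). Whether the counting used strand is not given in the sources used here, and the part of Ctsb in the Fdft1 values was not tested.

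Sqle encodes squalene epoxidase, the first oxygen-dependent step of sterol synthesis and 1 of its control points. It had 30.9, 22.5, 36.3 and 31.9 CPM in Adam17ex cerulein mice, against 2.54, 15.1, 1.96 and 6.90 CPM in Adam17ex PBS mice. It had 26.5, 28.1, 30.1 and 30.7 CPM in WT cerulein mice, against 8.03, 13.1, 11.3 and 9.57 CPM in WT PBS mice. Neither pair of groups overlapped, where 13.8% of all genes tested were higher without overlap in Adam17ex mice and 19.1% in WT mice. The log2 fold change was 2.23 ± 0.35 in Adam17ex mice (SE, 4.70-fold, adjusted p = 5.79e-05) and 1.49 ± 0.28 in WT mice (2.81-fold, adjusted p = 0.000195). The responses differed by 0.74 ± 0.47 (adjusted p = 0.379), with a 95% confidence interval of −0.24 to 1.72. The low end of the Adam17ex PBS group rests on 1 UMI each in replicates 1 and 3. With replicate 4 as the only Adam17ex PBS library, assumed to vary like the other groups, the log2 fold change in Adam17ex mice was 2.19 (adjusted p = 0.00304).

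Sc5d encodes the sterol C5-desaturase, a late enzyme of the route. It had 40.2, 46.8, 42.2 and 32.6 CPM in Adam17ex cerulein mice, against 45.7, 40.3, 25.5 and 18.7 CPM in Adam17ex PBS mice. It had 40.6, 45.4, 33.5 and 30.7 CPM in WT cerulein mice, against 25.2, 31.3, 36.9 and 32.3 CPM in WT PBS mice. The groups overlapped in both genotypes. With log2 fold changes of 0.40 ± 0.25 in Adam17ex mice (SE, adjusted p = 0.223) and 0.17 ± 0.23 in WT mice (adjusted p = 0.581), Sc5d had the lowest estimate of the tested enzymes in WT mice. The 95% confidence intervals ran from −0.10 to 0.91 in Adam17ex mice and from −0.30 to 0.64 in WT mice.

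Srebf2 encodes SREBP-2, the transcription factor of the pathway, whose activity is set largely by cleavage of the protein and is not read by its RNA. It had 23.7, 29.5, 18.7 and 16.6 CPM in Adam17ex cerulein mice, against 2.54, 20.2, 1.96 and 8.87 CPM in Adam17ex PBS mice. It had 19.4, 15.1, 21.0 and 15.3 CPM in WT cerulein mice, against 8.03, 13.8, 14.3 and 8.37 CPM in WT PBS mice. The WT groups did not overlap, by a margin of less than 1 CPM, and the Adam17ex groups overlapped through Adam17ex PBS replicate 2. Of all genes tested, 19.1% were higher without overlap in WT mice. The log2 fold change passed the test in Adam17ex mice (1.42 ± 0.42, SE, adjusted p = 0.0134) and not in WT mice (0.66 ± 0.36, adjusted p = 0.150), and the difference between them, 0.77 ± 0.56, was not shown (adjusted p = 0.458). As for Sqle, Adam17ex PBS replicates 1 and 3 had 1 UMI each. The Adam17ex call did not hold with replicate 4 as the only Adam17ex PBS library (1.19, adjusted p = 0.127) or in females only (0.69, adjusted p = 0.334).

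Insig1 encodes the protein that retains SCAP in the endoplasmic reticulum. It had 219, 234, 171 and 194 CPM in Adam17ex cerulein mice, against 55.8, 60.5, 60.8 and 52.2 CPM in Adam17ex PBS mice. It had 117, 129, 128 and 162 CPM in WT cerulein mice, against 52.8, 42.9, 54.3 and 58.6 CPM in WT PBS mice. The 8 PBS libraries lay within 42.9 to 60.8 CPM, and every cerulein library lay above them. Of all genes tested, 13.8% were higher without overlap in Adam17ex mice and 19.1% in WT mice. The log2 fold change of Insig1 was 1.85 ± 0.18 in Adam17ex mice (SE, 3.60-fold, adjusted p = 1.04e-07) and 1.38 ± 0.17 in WT mice (2.61-fold, adjusted p = 1.38e-06). With replicate 4 as the only Adam17ex PBS library the Adam17ex value was 2.04 (adjusted p = 0.000207). Insig1 held 56.2% of the UMIs of the 8 genes in Adam17ex cerulein mice, 47.5% in WT cerulein mice, 37.8% in Adam17ex PBS mice and 35.5% in WT PBS mice, shares that are not corrected for transcript length.

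**Figure D2:**
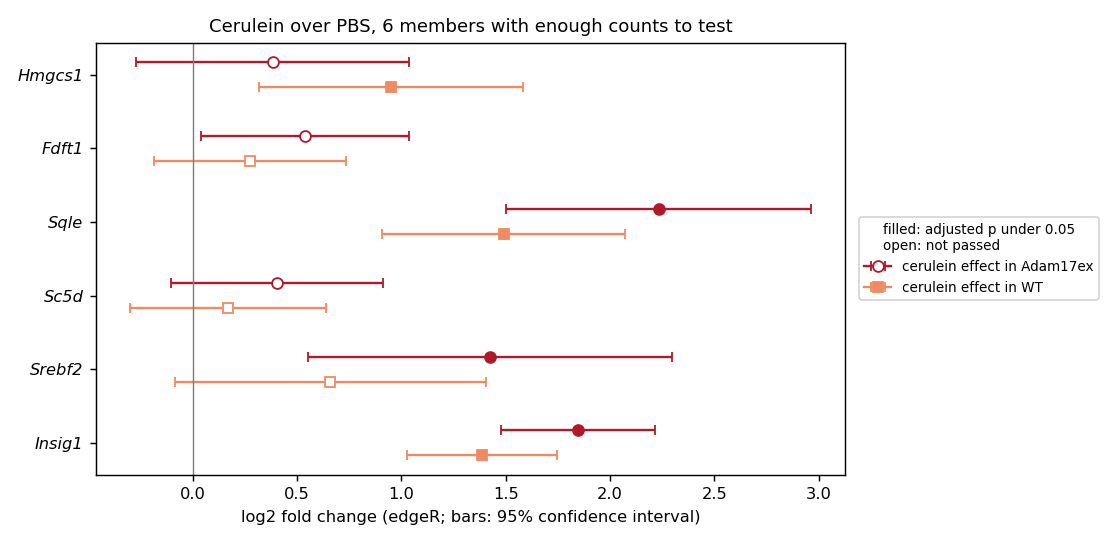
Log2 fold change of cerulein over PBS (x axis, edgeR, bars are 95% confidence intervals) for the 6 tested genes, with Adam17ex above WT for each gene; filled points have an adjusted p under 0.05. All 12 estimates lie above 0, those of Sqle (2.23 in Adam17ex, 1.49 in WT) and Insig1 (1.85 and 1.38) with intervals clear of 0.

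Some cell type markers changed with cerulein, where 14.1% of all genes tested rose and 16.2% fell in Adam17ex mice. In WT mice 19.8% of all genes tested rose and 21.3% fell. The acinar marker list had 2 of 10 genes lower in Adam17ex mice and 7 of 10 lower in WT mice, with summed levels of 122938 to 157607 CPM in Adam17ex cerulein, 82282 to 119134 CPM in WT cerulein, 96033 to 174627 CPM in Adam17ex PBS and 133825 to 172996 CPM in WT PBS mice. The duct list, with 6 of 8 genes tested, had 2 higher in Adam17ex mice and 5 higher and 1 lower in WT mice, with sums of 505 to 566 CPM in Adam17ex cerulein, 1148 to 1421 CPM in WT cerulein, 363 to 456 CPM in Adam17ex PBS and 359 to 404 CPM in WT PBS mice. Adipocyte markers had 4 of 5 tested genes lower in Adam17ex mice and 5 of 5 lower in WT mice. Their sums were 76.4 to 418 CPM in Adam17ex cerulein, 37.7 to 68.1 CPM in WT cerulein, 167 to 965 CPM in Adam17ex PBS and 59.4 to 498 CPM in WT PBS mice, with Lep at 0 in Adam17ex cerulein mice and Lep and Plin1 at 0 in WT cerulein mice. Tested markers of islet cells were lower in 7 of 8 cases in Adam17ex mice, those of B and plasma cells in 3 of 3, of macrophages in 4 of 6, of stellate cells and fibroblasts in 4 of 5 and of endothelial cells in 1 of 4. In WT mice B and plasma cell markers were lower in 3 of 3 and the macrophage, stellate and endothelial lists in 1 gene each. Of the 8 tested islet markers 0 passed the test in WT mice. The part of these shifts in the values of the 8 genes was not tested.

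Between the genotypes under cerulein, Insig1 differed and the tested enzymes of the set did not pass the test. Insig1 averaged 205 ± 27.9 CPM in Adam17ex cerulein mice and 134 ± 19.5 CPM in WT cerulein mice (SD, n = 4 each), without overlap, a log2 fold change of 0.63 ± 0.16 (SE, 1.55-fold, adjusted p = 0.0149). It was 1 of 6 tested genes of the set that were higher, with 0 lower, where 5.85% of all genes tested were higher and 3.82% lower. All 4 libraries were higher without overlap for 9.64% of all genes tested. None of the 6 was lower at an unadjusted p under 0.05, and limma-voom and DESeq2 also called 1 higher and 0 lower. The Insig1 call did not hold without a filter on low counts (0.62, adjusted p = 0.0845), in females only (0.56, adjusted p = 0.181), without Adam17ex cerulein replicate 2 (0.54, adjusted p = 0.0602), without WT cerulein replicate 1 (0.52, adjusted p = 0.145) or without WT cerulein replicate 3 (0.58, adjusted p = 0.0541). The cerulein responses of Insig1 differed by 0.46 ± 0.25 between genotypes, which did not pass the test (adjusted p = 0.285).

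The enzymes of the set lay close together in the 2 cerulein groups. Their summed level was 139.8 ± 14.1 CPM in Adam17ex cerulein, 131.1 ± 7.66 CPM in WT cerulein, 84.3 ± 11.4 CPM in Adam17ex PBS and 80.5 ± 13.2 CPM in WT PBS mice (SD, n = 4 each, 6 enzymes). The log2 fold changes of Adam17ex over WT under cerulein were 0.04 ± 0.28 for Hmgcs1 (SE, adjusted p = 0.956), 0.13 ± 0.21 for Fdft1 (adjusted p = 0.754), 0.14 ± 0.24 for Sqle (adjusted p = 0.783) and 0.04 ± 0.22 for Sc5d (adjusted p = 0.942), and that of Srebf2 was 0.32 ± 0.33 (adjusted p = 0.597). The upper ends of the 95% confidence intervals were 0.49 to 0.64 on the log2 scale for the 4 enzymes and 1.00 for Srebf2. Idi1 averaged 5.84 ± 1.31 CPM in Adam17ex cerulein and 4.36 ± 1.58 CPM in WT cerulein mice, and Fdps averaged 6.45 ± 2.49 CPM in Adam17ex cerulein and 7.83 ± 2.07 CPM in WT cerulein mice, with overlap in both. Marker levels differed between these groups as well, where 5.85% of all genes tested were higher and 3.82% lower in Adam17ex cerulein mice. The acinar list had 3 of 10 genes higher in Adam17ex cerulein mice, with none at 0, and its sums did not overlap (122938 to 157607 against 82282 to 119134 CPM), while the duct list had 1 of 6 tested genes higher and 5 lower (505 to 566 against 1148 to 1421 CPM, none at 0). Their part in the Insig1 difference was not tested.

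**Figure D3:**
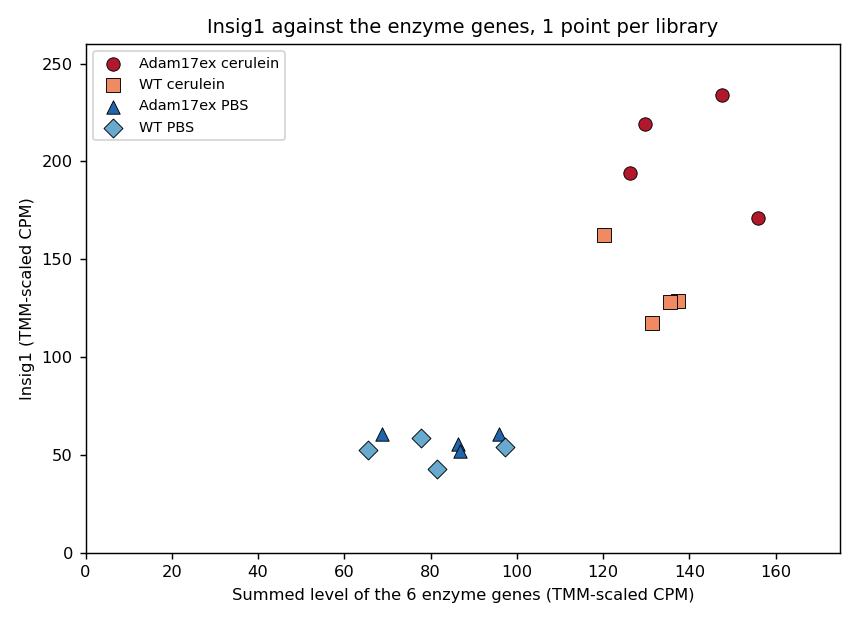
Insig1 (y axis) against the summed level of the 6 enzyme genes (x axis), both in TMM-scaled CPM, 1 point per library, with the 4 groups by colour and shape. The Adam17ex cerulein points lie higher on the Insig1 axis (171 to 234) than the WT cerulein points (117 to 162) at similar enzyme sums (126 to 156 and 120 to 137), and the PBS points of both genotypes lie together. The sum holds only enzymes of the set, and no test compared it with Insig1. Of 7 tested synthesis enzymes outside the set, 1 was higher in Adam17ex cerulein mice and 0 lower, where 5.85% of all genes tested were higher. That enzyme was Cyp51, with means of 31.9 CPM in Adam17ex cerulein and 15.1 CPM in WT cerulein mice.

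Under PBS no gene of the set passed the test between genotypes, with 0 of 6 higher and 0 lower, where 0.631% of all genes tested were higher and 0.729% lower. None of the 6 had an unadjusted p under 0.05 in edgeR, and limma-voom and DESeq2 called 0. Hmgcs1 had the highest estimate, 0.60 ± 0.36 (SE, adjusted p = 0.415; 19.0 ± 8.47 CPM in Adam17ex PBS and 14.01 ± 7.20 CPM in WT PBS mice, SD, n = 4 each). Sqle had the lowest, −0.61 ± 0.42 (adjusted p = 0.503; 6.63 ± 6.07 CPM in Adam17ex PBS and 10.5 ± 2.18 CPM in WT PBS mice). The wide spread of the Adam17ex PBS group, with 1 to 31 UMIs for these 2 genes in a library, limits what could be detected here. Insig1, with 22 UMIs or more in each library, had a difference of 0.17 ± 0.20 (adjusted p = 0.741) and a 95% confidence interval of −0.25 to 0.59.

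In the test of whether the cerulein response differed by genotype, 0 of 6 were higher and 0 lower, where 3.75% of all genes tested were higher and 2.25% lower. None of the 6 had an unadjusted p under 0.05 in edgeR, and limma-voom and DESeq2 called 0. The estimates ran from −0.57 for Hmgcs1 to 0.77 for Srebf2. The comparisons between genotypes and the cerulein comparisons share mice with each other, so their values are given side by side and not as independent evidence.

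**Figure D4:**
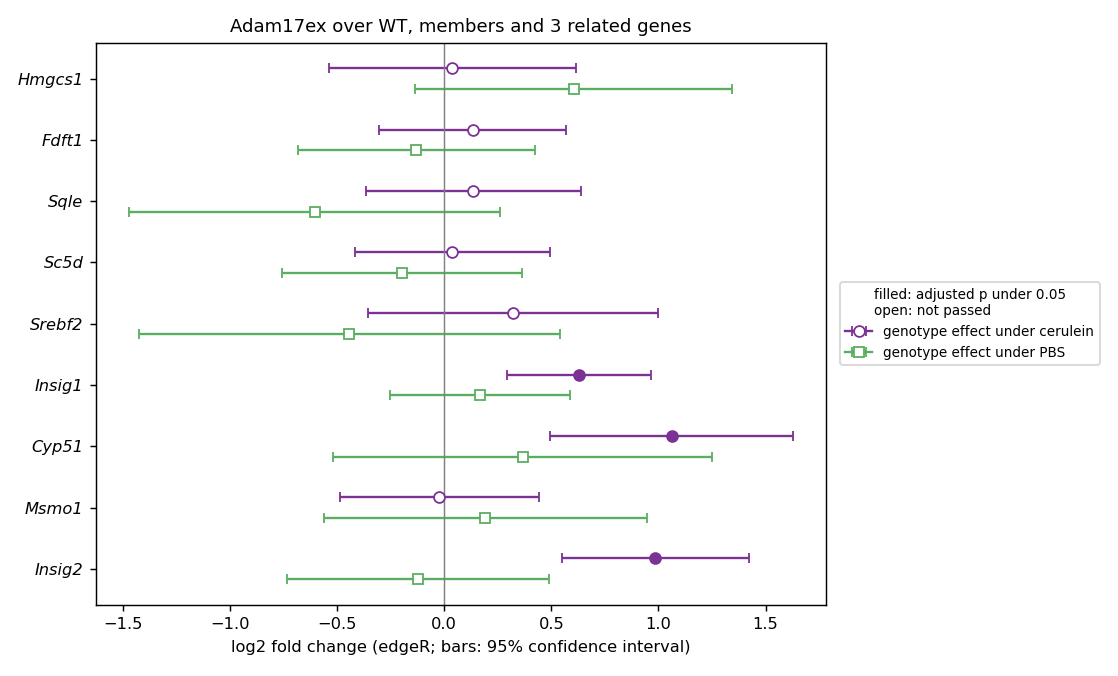
Log2 fold change of Adam17ex over WT (x axis, edgeR, bars are 95% confidence intervals) under cerulein and under PBS for the 6 tested genes of the set and for Cyp51, Msmo1 and Insig2; filled points have an adjusted p under 0.05. Filled points under cerulein are Insig1 (0.63), Cyp51 (1.06) and Insig2 (0.99), all higher in Adam17ex mice, and no point under PBS is filled; Acly and Me1, which were lower, are not drawn.

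The wider pathway was read from lists of sterol and lipid genes, which include the genes of the set. Under cerulein, 14.1% of all genes tested rose and 16.2% fell in Adam17ex mice, and 19.8% rose and 21.3% fell in WT mice. Without the set, 7 synthesis enzymes were tested. Of these, 2 rose and 0 fell in Adam17ex mice, and 3 rose and 1 fell in WT mice. Their median log2 fold changes were 0.38 in Adam17ex and 0.91 in WT mice. In the sterol arm of synthesis, 8 of 13 genes were tested, and 3 rose in Adam17ex mice, while 3 rose and 1 fell in WT mice. Beside Sqle these were Msmo1 and Cyp51, a methyl oxidase and the demethylase that together remove methyl groups from lanosterol. Msmo1 averaged 39.4 ± 6.73 CPM in Adam17ex cerulein and 13.1 ± 4.26 CPM in Adam17ex PBS mice (SD, n = 4 each; log2 fold change 1.61 ± 0.29, SE, adjusted p = 0.000282). It averaged 38.6 ± 5.45 CPM in WT cerulein and 10.7 ± 4.82 CPM in WT PBS mice (1.82 ± 0.27, adjusted p = 1.24e-05). Cyp51 averaged 31.9 ± 7.27 CPM in Adam17ex cerulein and 9.19 ± 2.87 CPM in Adam17ex PBS mice (1.74 ± 0.33, adjusted p = 0.000430), and 15.1 ± 4.04 CPM in WT cerulein and 7.13 ± 3.08 CPM in WT PBS mice (1.04 ± 0.34, adjusted p = 0.0176). The WT call of Cyp51 did not hold without WT cerulein replicate 2 (0.89, adjusted p = 0.0613) or WT PBS replicate 2 (0.92, adjusted p = 0.0573).

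Ebp, the sterol isomerase of a later step, moved the other way. It fell to 8.54 ± 2.38 CPM in WT cerulein mice, against 24.7 ± 4.21 CPM in WT PBS mice (−1.58 ± 0.28, adjusted p = 0.000101). In Adam17ex mice it had 11.7 ± 1.68 CPM under cerulein and 15.1 ± 3.97 CPM under PBS (−0.42 ± 0.31, adjusted p = 0.312). The sterol arm held genes with opposite responses in WT mice, with a median log2 fold change of 0.59 in WT and 0.47 in Adam17ex mice. In the mevalonate arm 3 of 9 genes were tested, with 0 calls in Adam17ex mice (edgeR, 0 at an unadjusted p under 0.05 and 0 by limma-voom and DESeq2), and 2 were higher in WT mice, Hmgcs1 among them.

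Insig2, which encodes the second INSIG protein, rose with Insig1 in both genotypes. It averaged 92.8 ± 26.9 CPM in Adam17ex cerulein and 22.1 ± 6.65 CPM in Adam17ex PBS mice (2.03 ± 0.25, adjusted p = 3.50e-06), and 47.9 ± 6.16 CPM in WT cerulein and 25.1 ± 5.36 CPM in WT PBS mice (0.92 ± 0.24, adjusted p = 0.00360). Its level under cerulein was higher in Adam17ex than in WT mice (0.99 ± 0.21, adjusted p = 0.00337; 0.67, adjusted p = 0.0643, without Adam17ex cerulein replicate 4), and the difference between the responses was 1.11 ± 0.35 (adjusted p = 0.0637). Cyp51 was also higher under cerulein in Adam17ex than in WT mice (1.06 ± 0.27, adjusted p = 0.0140), a call that did not hold in females only (0.99, adjusted p = 0.166), without Adam17ex cerulein replicate 2 (0.97, adjusted p = 0.0519) or 4 (0.94, adjusted p = 0.0928), or without WT cerulein replicate 1 (1.02, adjusted p = 0.0908) or 4 (0.89, adjusted p = 0.0561). Msmo1 did not pass that test (−0.02 ± 0.22, adjusted p = 0.968). Of the 48 tested lipid genes outside the set, 3 were higher and 2 lower in Adam17ex than in WT mice under cerulein. Over all genes tested, 5.85% were higher and 3.82% lower in that comparison. The 2 lower lipid genes were Acly (−0.82) and Me1 (−1.03), both on the fatty acid synthesis list.

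In the list of genes that control SREBP, 10 of 11 were tested, with 3 higher and 1 lower in Adam17ex mice and 2 higher and 1 lower in WT mice. The higher genes were Insig1 and Insig2 in both genotypes and Srebf2 in Adam17ex mice. The lower gene in Adam17ex mice was Mbtps1, the first of the proteases that cleave SREBP (−0.81 ± 0.24, adjusted p = 0.0129), a call lost under 7 of 26 alternatives, with 21.5 ± 3.70 CPM in Adam17ex cerulein and 37.9 ± 6.40 CPM in Adam17ex PBS mice. It did not hold without Adam17ex cerulein replicate 2 (−0.72, adjusted p = 0.0507) or 4 (−0.71, adjusted p = 0.0580), or without Adam17ex PBS replicate 1 (−0.65, adjusted p = 0.0632) or 3 (−0.72, adjusted p = 0.0525). The lower gene in WT mice was Srebf1, the gene of SREBP-1, which controls fatty acid synthesis (−0.79 ± 0.26, adjusted p = 0.0192), with 18.4 ± 5.59 CPM in WT cerulein and 32.9 ± 8.41 CPM in WT PBS mice. That call did not hold in females only (−0.62, adjusted p = 0.0751), without WT cerulein replicate 1 (−0.63, adjusted p = 0.0697) or 2 (−0.68, adjusted p = 0.0634), or without WT PBS replicate 3 (−0.71, adjusted p = 0.0596) or 4 (−0.63, adjusted p = 0.0864). Over the 67 listed lipid genes outside the set, 48 were tested, with 4 higher and 13 lower in Adam17ex mice and 9 higher and 12 lower in WT mice, and medians of −0.16 and −0.13. Over all genes tested, 14.1% rose and 16.2% fell in Adam17ex mice, and 19.8% rose and 21.3% fell in WT mice.

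**Figure D5:**
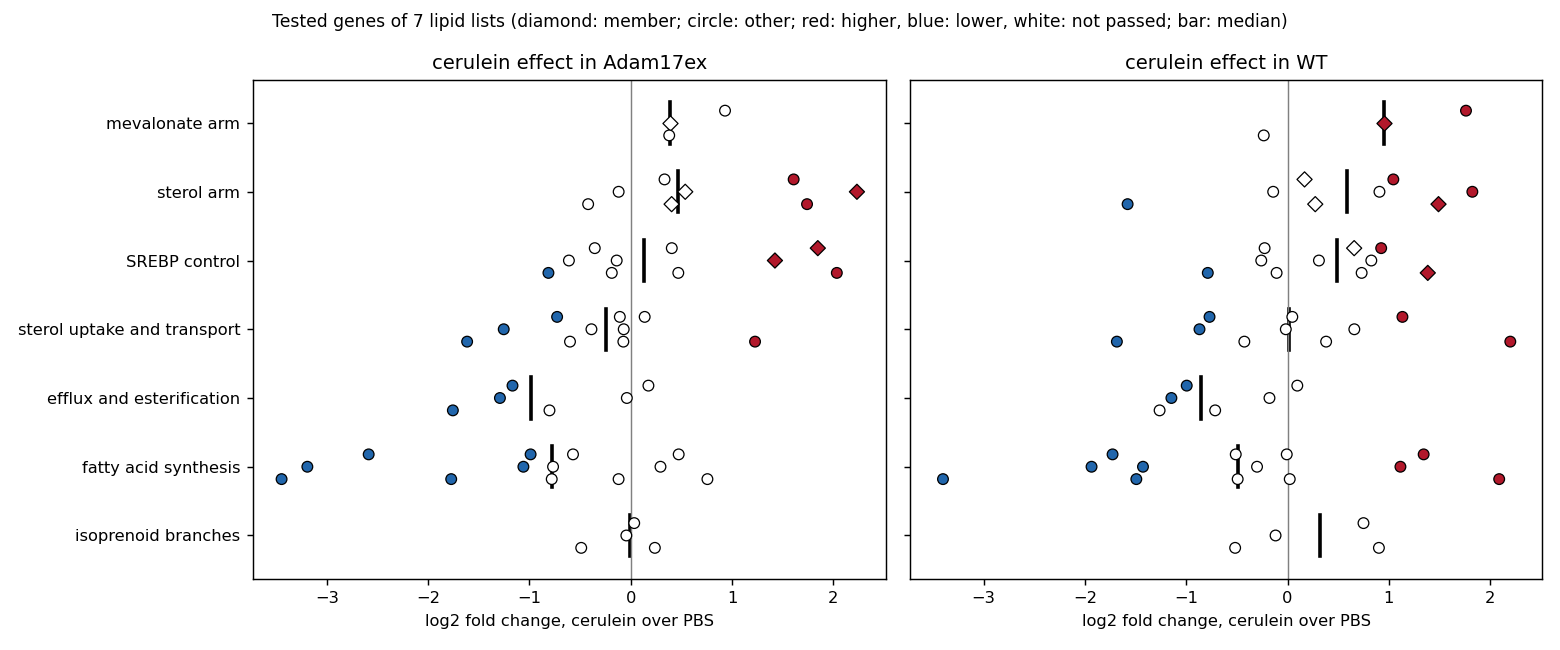
Log2 fold change of cerulein over PBS (x axis) in Adam17ex (left) and WT mice (right) for the tested genes of 7 lipid lists (rows); diamonds are genes of the set, circles other genes, red points passed the test as higher, blue as lower and white points did not pass, and the bars are list medians. The medians, taken with the genes of the set included, lie above 0 for the sterol arm (0.47 in Adam17ex, 0.59 in WT). They lie below 0 for efflux and esterification (−0.98 and −0.85) and fatty acid synthesis (−0.78 and −0.49).

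The genes of the set differed among themselves in profile. Over the 16 libraries, each gene's log2 CPM was centred on its mean and pairs were compared by the root mean square difference. The closest pair was Fdft1 and Sc5d (0.38), the flattest profiles, followed by Sqle and Srebf2 (0.45), and the farthest was Sc5d and Sqle (0.92). Low counts can raise or lower these distances, so the distances describe the data and carry no test. Sqle and Srebf2 each had 1 UMI in Adam17ex PBS replicates 1 and 3, and the part of these counts in their closeness was not tested. The 5 genes outside the set closest to the mean profile of the 6 tested genes were Ap1b1 (0.18), Etf1 (0.19), Eif5 (0.21), Agfg1 (0.21) and Eif2s2 (0.22), where the median over all genes was 0.72. Closest to Insig1 were Rars (0.24) and Gys1 (0.25), with a median of 0.94 over all genes. Closest to Sqle were Fam83g (0.29), Tma16 (0.39) and Tes (0.41), with a median of 1.11. For the other genes the 3 closest were Wasf2, Ptbp3 and Aopep for Hmgcs1 (0.31 to 0.32), Bcas2, Tepsin and Hbs1l for Fdft1 (0.21 to 0.23), Rbm28, Arfgef1 and Bms1 for Sc5d (0.17 to 0.19), and Lemd2, Cyb561 and Pdia5 for Srebf2 (0.39 to 0.45).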

How the data were processed

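Pancreas RNA was sequenced as UMI libraries from 30 ng of total RNA after poly(A) priming with a 10 bp UMI and 101 bp reads, per the labels' protocols. The values used were UMI counts per gene, which the authors deposited as 1 table of raw whole-number counts. The submitters' processing notes name GRCm38 and mm10 with R 4.1.2, edgeR 3.36.0 and limma 3.50.0. The sources used here give no aligner, UMI collapsing, counting strand or model. Counts were analysed in R 4.3.3 with edgeR 4.0.16: filterByExpr by group (minimum count 10) kept 8236 of 24019 genes, TMM factors were computed, and glmQLFit was run on all 16 libraries with the 4 groups and sex in the model. SE is the log2 fold change divided by the root of its F statistic. Levels are CPM, deposited counts per 1000000 of the TMM-scaled library total. limma-voom 3.58.1 and DESeq2 1.42.0 were alternatives. Gene models are GENCODE vM21 on GRCm38. The 8 genes and all lists were chosen with earlier results of these data known. All values of the 8 genes are given; of each list up to 3 called genes with the smallest p are named per comparison. Some listed genes are counted but not reported by name here.

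Replicate chi-square per degree of freedom was 3.79 to 13.1 over 24 pairs, so no library was a duplicate. Replicate numbers were not treated as pairs: 5 of 24 same-numbered pairs had a correlation of deviations above 0.1 (−0.22 to 0.24). Between Adam17ex cerulein and Adam17ex PBS mice the correlations were 0.16, 6.1e-05, 0.12 and 0.24 for replicates 1 to 4. Weak correlations over 4 replicates cannot exclude a pairing.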

Additional observations from a re-analysis of the deposited data

Results flagged for a closer look

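Stard3, which encodes a sterol transporter of late endosomes and is on the list of sterol uptake and transport, had cerulein responses that differed between the genotypes by −1.39 ± 0.39 on the log2 scale (SE, edgeR adjusted p = 0.0352), a test of the difference itself. It had 16.7 ± 2.25 CPM in Adam17ex cerulein and 28.5 ± 5.89 CPM in Adam17ex PBS mice (SD, n = 4 each), and 18.0 ± 4.81 CPM in WT cerulein and 11.4 ± 2.68 CPM in WT PBS mice. The call did not hold under 13 of 26 alternatives, with an adjusted p of up to 0.307 (females only). Of the 16 omissions of a single library, which gave −1.54 to −1.24, it did not hold without Adam17ex cerulein replicate 2 (−1.36) or 3 (−1.30), WT cerulein replicate 1 (−1.34) or 3 (−1.24), Adam17ex PBS replicate 1 (−1.25) or 2 (−1.38), or WT PBS replicate 1 (−1.27), 3 (−1.34) or 4 (−1.37). No library lay far from the others of its group by Dixon's criterion at the 95% level in any of the 32 combinations of the 8 genes with the 4 groups.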

How the results depend on the processing

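Of 776 values of the 30 results on the 6 tested genes under 26 alternatives, 768 kept their direction where called and their side of the threshold, 8 lost the call and 0 changed the sign of a called value; the 8 stand beside their results above. Of 1195 values of 46 results on other listed genes, 161 lost the call and 0 changed sign. All 46 of these results were calls. Of the 30 on the set, only 3 for cerulein in Adam17ex mice, 3 for cerulein in WT mice and 1 between genotypes under cerulein were calls. Only a called result can lose its call, so the shares lost are not comparable. The genotype call of Insig1 under cerulein was lost under 5 of 26 alternatives. In 5 further cases DESeq2 gave no adjusted p. The cause of each change below was not tested, except that alternatives with fewer mice have fewer degrees of freedom.

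The count of set genes called between genotypes under cerulein, 1, was 0 without a filter, 0 in females only and 0 to 1 when single libraries were left out. Other listed genes called for cerulein in Adam17ex mice, 17, numbered 8 in females only and 9 with replicate 4 as the only Adam17ex PBS library. Those called between genotypes under cerulein, 5 (3 higher and 2 lower), numbered 2 in females only and 1 to 5 without single libraries. Those called between genotypes under PBS, 2 (both higher), numbered 0 in females only, 1 without a filter, 1 with a replicate block, 1 by limma-voom, 1 by DESeq2, 1 with replicate 4 as the only Adam17ex PBS library and 0 to 3 without single libraries. Those called for the difference of responses, 1, numbered 2 with upper-quartile factors, 2 with TMM factors computed without digestive enzyme genes, 4 without a filter, 4 without sex, 2 by limma-voom, 2 by DESeq2, 0 with replicate 4 as the only Adam17ex PBS library and 0 to 5 without single libraries.

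Over all genes, the 2493 calls for cerulein in Adam17ex mice became 1425 in females only and 1360 with replicate 4 as the only Adam17ex PBS library. The 797 between genotypes under cerulein became 271 in females only and 403 without WT cerulein replicate 1. The 112 under PBS became 22 in females only, 331 without a filter, 407 without sex, 234 by DESeq2, 15 with the reduced Adam17ex PBS group, 229 with the replicate block and 27 to 370 without single libraries. The 494 for the difference of responses became 82 in females only, 152 with the reduced group and 239 to 624 without single libraries. The replicate block changed no call of the 6 tested genes, and 6 of 16 libraries correlated best with their own number. Other scalings moved the median of all genes by at most 0.03 on the log2 scale. Depth limits Idi1 and Fdps, with at most 11 UMIs in a library, and the Adam17ex PBS group.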

Other observations

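Fatty acid synthesis is the other branch under SREBP control. Of its 15 listed genes 13 were tested, and under cerulein 6 were lower and 7 did not pass in Adam17ex mice, while 3 were higher, 5 lower and 5 did not pass in WT mice (edgeR, adjusted p under 0.05). Over all genes tested, 14.1% were higher and 16.2% lower in Adam17ex mice, and 19.8% higher and 21.3% lower in WT mice. In Adam17ex mice Gpam, the first enzyme of glycerolipid synthesis, had 7.31 ± 2.47 CPM under cerulein and 41.2 ± 13.1 CPM under PBS (SD, n = 4 each; log2 fold change −2.59 ± 0.33, SE, adjusted p = 4.44e-06). Scd1, the stearoyl-CoA desaturase, had 22.4 ± 6.10 CPM under cerulein and 196 ± 146 CPM under PBS (−3.19 ± 0.46, adjusted p = 1.73e-05), and Fads2, a fatty acid desaturase, had 10.4 ± 2.55 CPM under cerulein and 33.4 ± 9.12 CPM under PBS (−1.77 ± 0.35, adjusted p = 0.000560). In WT mice Gpam had 8.10 ± 1.67 CPM under cerulein and 30.6 ± 10.8 CPM under PBS (−1.93 ± 0.32, adjusted p = 4.77e-05), and Fads1, another desaturase, had 14.4 ± 4.09 CPM under cerulein and 42.0 ± 9.02 CPM under PBS (−1.49 ± 0.25, adjusted p = 4.88e-05). Me1, the malic enzyme that supplies NADPH, rose under cerulein in WT mice, with 20.7 ± 2.79 CPM under cerulein and 4.08 ± 0.920 CPM under PBS (2.09 ± 0.38, adjusted p = 0.000131). Between the genotypes under cerulein 2 of the 13 were lower in Adam17ex mice, where 3.82% of all genes tested were lower. Acly, the ATP citrate lyase that supplies acetyl-CoA, had 18.5 ± 2.22 CPM in Adam17ex cerulein and 32.1 ± 6.73 CPM in WT cerulein mice (−0.82 ± 0.24, adjusted p = 0.0291). Its call did not hold without a filter (adjusted p = 0.0664), in females only (0.0825), or without Adam17ex cerulein replicate 1, 3 or 4 or WT cerulein replicate 2 or 3, with an adjusted p of up to 0.121. Me1 had 11.4 ± 1.95 CPM in Adam17ex cerulein and 20.7 ± 2.79 CPM in WT cerulein mice (−1.03 ± 0.32, adjusted p = 0.0407). Its call did not hold under 13 of 26 alternatives, among them DESeq2 (adjusted p = 0.0644), females only (0.200) and the omission of any single one of the 8 cerulein libraries (up to 0.103). The adipocyte marker sums given in the report had lower medians under cerulein than under PBS in both genotypes, with overlapping ranges, and their part in these values was not tested.

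The other lists behaved as follows, beside cerulein shares over all genes tested of 14.1% higher and 16.2% lower in Adam17ex mice. In WT mice these shares were 19.8% higher and 21.3% lower. Of 6 tested genes of sterol efflux and esterification, 0 rose and 3 fell in Adam17ex mice and 0 rose and 2 fell in WT mice; no gene was higher at an unadjusted p under 0.05 in edgeR or called higher by limma-voom or DESeq2. Of 10 tested genes of sterol uptake and transport, 1 rose and 3 fell in Adam17ex mice and 2 rose and 3 fell in WT mice. In Adam17ex mice Mylip, the ubiquitin ligase that marks lipoprotein receptors for degradation, had 6.36 ± 2.15 CPM under cerulein and 21.8 ± 14.1 CPM under PBS (−1.61 ± 0.42, adjusted p = 0.00555), a call that did not hold in females only (−0.68, adjusted p = 0.475) or with replicate 4 as the only Adam17ex PBS library (−0.50, adjusted p = 0.674). Vldlr, a receptor for triglyceride-rich lipoproteins, fell to 12.6 ± 6.51 CPM in WT cerulein mice, against 40.7 ± 1.92 CPM in WT PBS mice (−1.68 ± 0.29, adjusted p = 5.85e-05). Under cerulein it was higher in Adam17ex mice, with 35.5 ± 5.50 CPM, than in WT mice (1.45 ± 0.29, adjusted p = 0.00195; 1.05, adjusted p = 0.0554, in females only). None of the 4 tested genes of the isoprenoid branches passed the test in any of the 5 comparisons; edgeR gave 1 unadjusted p under 0.05, for cerulein in WT mice, and limma-voom and DESeq2 called 0.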
